A study of Mus musculus with 2 samples.

Results

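The miRNAs described here are mmu-miR-126a-3p and mmu-miR-126a-5p, the 2 arms of the miR-126a hairpin, and mmu-miR-130a-3p; the prefix for mouse is left out from here on. They were taken by name from the miRNA probes of an Agilent mouse array, which gave 3 of its 1881 miRNAs, 6 of its 4415 probes and 90 spots per array. The study compared whole femurs, with marrow and bone together, of female C57BL/6-background mice aged 9 months after ovariectomy (OVX), the removal of the ovaries, and after a sham operation, which leaves them in place. Each group was 1 RNA sample mixed from the tissue of 4 mice and hybridised to 1 single-colour array. The 2 samples share strain, age, sex, tissue and label dye, and the labels give neither the time after surgery nor any other allele or agent.

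miR-126 lies within Egfl7, a gene of the vessel lining, and is among the most abundant miRNAs of endothelial cells, where it restrains inhibitors of growth factor signalling such as Spred1 and helps keep vessels intact. It is also found in haematopoietic stem cells and platelets. miR-130a is known from haematopoietic progenitors and the megakaryocyte lineage and from endothelial cells, where it acts on the anti-angiogenic transcription factor genes Meox2 and Hoxa5. A miRNA selects its targets mainly through its seed, bases 2 to 8 from its 5′ end.

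The sequences below are from RefSeq (GRCm38.p6). They show that the seeds of the 2 measured members differ. They also show which other array miRNAs carry the miR-130a-3p seed, among those whose name matched a mature sequence. Seeds are in capitals. 
miR-126a-3p: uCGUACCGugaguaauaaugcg
miR-130a-3p: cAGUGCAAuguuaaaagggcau
miR-130b-3p: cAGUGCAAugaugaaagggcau
miR-130c: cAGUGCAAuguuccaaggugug
miR-301a-3p: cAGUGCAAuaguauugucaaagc
miR-721: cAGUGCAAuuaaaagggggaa
miR-6341: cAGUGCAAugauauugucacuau
miR-6389: cAGUGCAAuguuaaacuuugc

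Of the array's miRNAs, 1608 matched a mature sequence by name, 2 of the 3 members among them. None of the others matched carries the seed of miR-126a-3p, and 6 carry that of miR-130a-3p. The gene of miR-126a is at chr2:26591357-26591429 on the plus strand of GRCm38.p6, inside Egfl7, and the gene of miR-130a is at chr2:84741115-84741178 on the minus strand, inside no gene of the RefSeq table. The hairpins are printed to show the place of the 3p arm, in capitals.
Mir126a: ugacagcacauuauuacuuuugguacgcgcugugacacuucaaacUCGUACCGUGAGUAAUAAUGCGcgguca
Mir130a: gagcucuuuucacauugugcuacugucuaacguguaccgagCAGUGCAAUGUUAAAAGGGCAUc

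With 1 array per group the differences have no replicate check. No test was made, and "higher" and "lower" are said of these 2 pools as measured. Errors are the standard error over the replicate spots of a probe (spot SE), which is technical and leaves out the spread between mice. The 75th percentile of the 350 probes that passed background in both samples was 1.01 higher in OVX on the log2 scale, a factor of 2.02, and levels are log2 intensities relative to that percentile. A miRNA was measured when a probe had over 50% of its unflagged spots well above background on both arrays, which held for 197 miRNAs. In a pooled bulk sample, fewer cells of a type and less of a miRNA per cell cannot be told apart.

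miR-126a-3p was higher in OVX, and miR-130a-3p was higher by less. Relative to the 75th percentile, miR-126a-3p was 1.70-fold (log2 difference 0.77, spot SE 0.04) and miR-130a-3p 1.19-fold (log2 difference 0.25, spot SE 0.07). With normexp background correction these differences were 0.03 and -0.30, so that miR-130a-3p changed sign, and with the trend in probe GC content removed miR-130a-3p was at 0.04. miR-126a-5p, the other arm of the miR-126a hairpin, was well above background on neither array. By the rule of at least 2-fold, 0 of the 2 measured members were higher or lower, where 2.03% of the 197 miRNAs were at least 2-fold higher and 2.03% at least 2-fold lower. By 1.5-fold, miR-126a-3p was higher, as were 11.2% of the 197, and 14.7% were lower.

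miR-126a-3p was read by 2 probes that cover bases 5 to 22 and 4 to 22 of the mature sequence printed above. The 18-base probe had processed signals of 17.9, 22.0 and 26.3 (lowest, median and highest of 14 spots) in sham and 60.3, 79.2 and 84.5 (15 spots) in OVX. The 19-base probe had 24.0, 33.7 and 38.6 in sham and 93.8, 111.2 and 124.8 in OVX (15 spots each). For neither probe did the spots of the arrays overlap, and the OVX spot was the brighter at every position compared.

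The unscaled mean of the 18-base probe went from 21.8 ± 2.37 (SD between 14 spots) to 76.2 ± 7.18 (15 spots), or 3.49-fold. That of the 19-base probe went from 32.8 ± 4.17 to 110.5 ± 9.80 (15 spots each), or 3.37-fold. After scaling, the probes' log2 differences were 0.79 (spot SE 0.05) and 0.74 (spot SE 0.06). They lay 0.03 (SD) apart, against 0.11, the root mean square SD between probes of a miRNA over the 139 miRNAs with at least 2 measured probes. After scaling too, the OVX spot was higher at 14 of 14 and 15 of 15 positions. The probes share an array and most of their letters, so their closeness says nothing of an error common to the array.

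**Figure D1:**
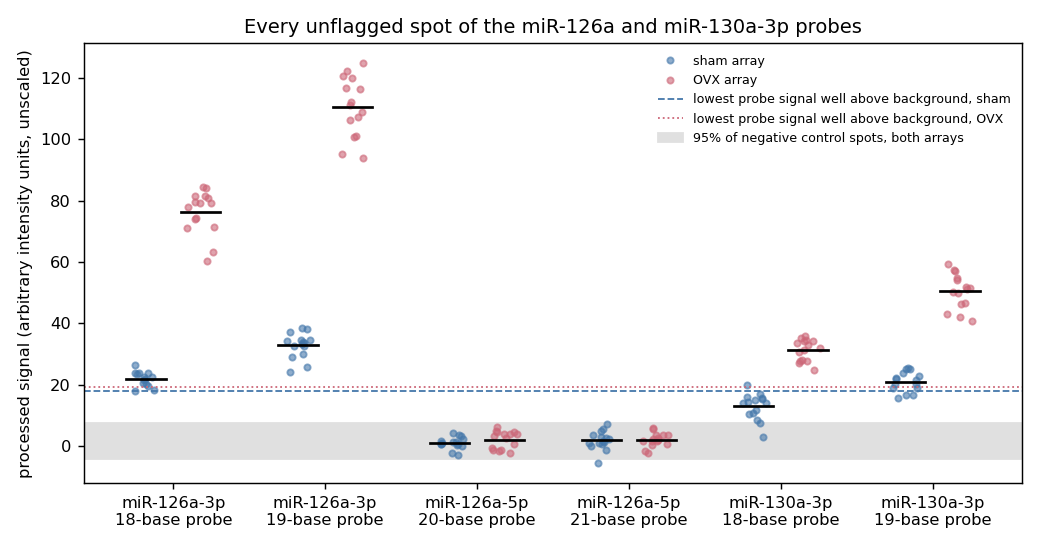
Processed signal (arbitrary intensity units, unscaled) of every unflagged spot of the 6 probes, sham in blue and OVX in red, with the mean of each probe as a black bar. Dashed and dotted lines mark the lowest probe signal counted as well above background (17.8 on sham, 19.3 on OVX) and the grey band holds 95% of the negative control spots. The miR-126a-3p spots do not overlap between the arrays, the miR-126a-5p spots lie near the band, and the 18-base probe of miR-130a-3p has a sham mean below the dashed line.

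The miR-126a-5p probes stayed near background. Their 30 spots lay between -5.74 and 7.15 in sham, with a median of 1.15, and between -2.46 and 6.17 in OVX, with a median of 2.33. The negative control spots ran from -6.30 to 9.40 in sham and from -7.59 to 10.3 in OVX, so all of these spots lay within that range. With 0 of 30 spots well above background on each array, no fold is given. The lowest probe signals counted as well above background, 17.8 and 19.3, show what the arrays could have measured. Since probes differ in how strongly they bind, this does not give the ratio of the 2 arms.

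The same held for the miRNAs on the opposite strand of the hairpin. miR-126b is annotated within the miR-126a gene, on the minus strand, and its probes have a sense opposite to those of miR-126a. miR-126b-3p spots reached at most 5.78 in sham and 1.75 in OVX, and miR-126b-5p spots 1.91 and 3.31, with 0 spots well above background. Signal from this locus was therefore above background on these arrays through the probes of miR-126a-3p only.

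miR-130a-3p was dimmer. Its 19-base probe had signals of 15.5, 21.5 and 25.5 (lowest, median and highest of 15 spots) in sham and 40.8, 51.1 and 59.4 (15 spots) in OVX. All OVX spots lay above all sham spots before scaling. The unscaled mean went from 20.9 ± 3.20 to 50.4 ± 5.73 (SD between 15 spots each), or 2.41-fold, against the 2.02-fold by which the arrays differ. After scaling the OVX spot was higher at 14 of 15 positions.

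The 18-base probe of miR-130a-3p ran from 2.82 to 19.9 in sham, with a median of 14.1, and from 24.8 to 36.0 in OVX, with a median of 31.8. Only 1 of its 15 spots was well above background in sham, against 15 of 15 in OVX. It was therefore not used for the level, its bound does not exceed 1-fold after scaling, and the value of miR-130a-3p rests on 1 probe. At matched positions its OVX spot was the brighter 15 of 15 times before scaling and 11 of 15 times after. miR-130a-5p, the other arm, had 0 spots well above background, with signals of at most 6.35 in sham and 7.32 in OVX.

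Among the 197 measured miRNAs the differences had a median of -0.04 and quartiles of -0.36 and 0.28, and 47.2% were above 0. miR-126a-3p was 14th from the highest, 0.81 above that median. miR-130a-3p was 53rd, 0.30 above it and just under the upper quartile. These ranks describe 2 arrays and give no measure of how often such places arise between pools of the same treatment.

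**Figure D2:**
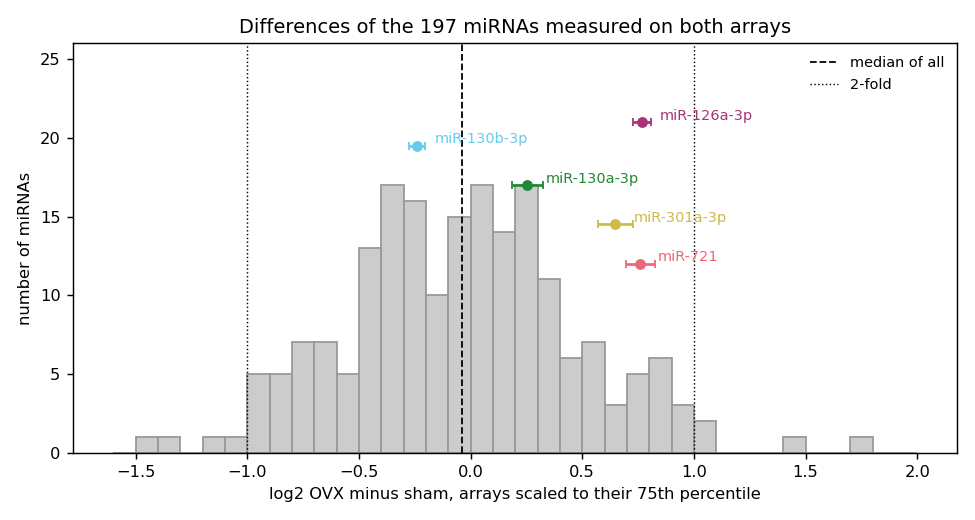
Histogram of the log2 difference, OVX minus sham, of the 197 miRNAs measured on both arrays, with the median of all (dashed, -0.04) and 2-fold in either direction (dotted). Points mark miR-126a-3p, miR-130a-3p and the measured miRNAs with the miR-130a-3p seed at their differences, with the spot SE; their height has no meaning. miR-126a-3p, miR-721 and miR-301a-3p lie to the right, miR-130b-3p to the left of 0.

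The miRNAs that share the miR-130a-3p seed went both ways with the scaling used here. Of the 6 relatives found among the array miRNAs with a matched sequence, 3 were measured, 2 of them above 0 and 1 below. Array miRNAs without a matched sequence were not searched for the seed. With miR-130a-3p the 4 had a median difference of 0.45 against -0.04 for all 197. miR-721, whose gene lies inside Cux1, differed by 0.76 (spot SE 0.07) with its 3 measured probes above 0. It was dim, with a sham level 188th from the highest of 197. Its 12-base probe went from an unscaled mean of 19.8 to 63.9, and its 14-base probe, with 2 of 7 sham spots well above background, was at least 1.75-fold higher in OVX. miR-301a-3p differed by 0.65 (spot SE 0.08) on 1 probe, whose unscaled mean went from 23.2 to 73.3. The 20-base probe of miR-301a-3p had 0 of 13 spots well above background in sham and 9 of 13 in OVX. Its bound did not exceed 1-fold after scaling. With normexp background correction miR-721 and miR-301a-3p were each at -0.09, miR-130b-3p at -0.34 and miR-130a-3p at -0.30, where the median of all miRNAs was -0.26. Scaled to control probes, all 3 measured relatives were above 0, at 1.40 for miR-721, 1.29 for miR-301a-3p and 0.40 for miR-130b-3p. The median of all miRNAs in that setting was 0.60.

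miR-130b-3p was the closest relative, with 20 of 22 bases in common from the 5′ end. With the scaling used here miR-130b-3p was lower, at -0.24 (spot SE 0.03). Its sign depended on the setting. It was at 0.40 scaled to control probes, 0.77 unscaled and 0.11 with the scanner software's gene-level signal. Relative to the median of all miRNAs, these values were at -0.20, -0.20 and -0.04, so miR-130b-3p stayed below that median. Its 18-base probe went from an unscaled mean of 72.0 ± 6.17 to 124.2 ± 6.81 (SD between 15 spots each), or 1.72-fold, less than the arrays differ. After scaling, its OVX spot was higher at 0 of 15 positions for this probe and at 3 of 14 for the 17-base probe. miR-130b is annotated beside miR-301b. miR-130c, miR-6341 and miR-6389 had 0 spots well above background on either array.

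With the 3′ ends of the miRNAs aligned and no gaps, the probes of miR-130a-3p have 2 mismatches to miR-130b-3p over their 18 or 19 bases, 6 to miR-130c, and at least 9 to the other 4, whose lengths differ. Aligned at the 5′ end instead, miR-130a-3p has 20 bases in common with miR-130b-3p, 16 with miR-130c, 15 each with miR-721 and miR-6389, 13 with miR-6341 and 12 with miR-301a-3p. The share of the probes' signal that came from these relatives was not tested. miR-721 is read by probes of only 12 to 15 bases.

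**Figure D3:**
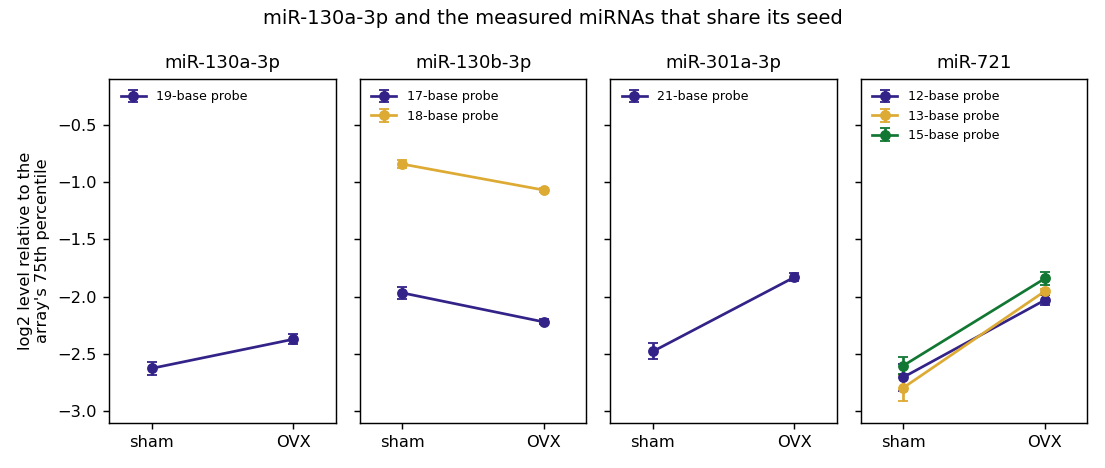
Log2 level relative to each array's 75th percentile for the measured probes of miR-130a-3p, miR-130b-3p, miR-301a-3p and miR-721, 1 line per probe from sham to OVX, with the standard error between spots as bars. The lines of miR-130b-3p slope down and the others up; the heights of different probes are not comparable as abundance.

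Before any scaling, both members were over 2-fold higher in OVX, as were 49.2% of the 197 miRNAs. The unscaled log2 differences were 1.78 for miR-126a-3p and 1.27 for miR-130a-3p, against a median of 0.97. Scaled to 28 control probes, which differed by 0.37 between the arrays, they were 1.41 and 0.89. So miR-126a-3p passed 2-fold, as did 40 of the 197 miRNAs in that setting. It also passed 2-fold with the scanner software's gene-level signal, at 1.104. There the median of all miRNAs was 0.15, and the share of all that passed was not counted. Normexp background correction with an offset of 50, which draws dim signals towards each other, moved the median of all miRNAs to -0.26. Across the 16 alternatives run, miR-126a-3p stood 0.29 to 0.95 above the median of all miRNAs in that setting. For miR-130a-3p the range over 15 was -0.04 to 0.45.

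**Figure D4:**
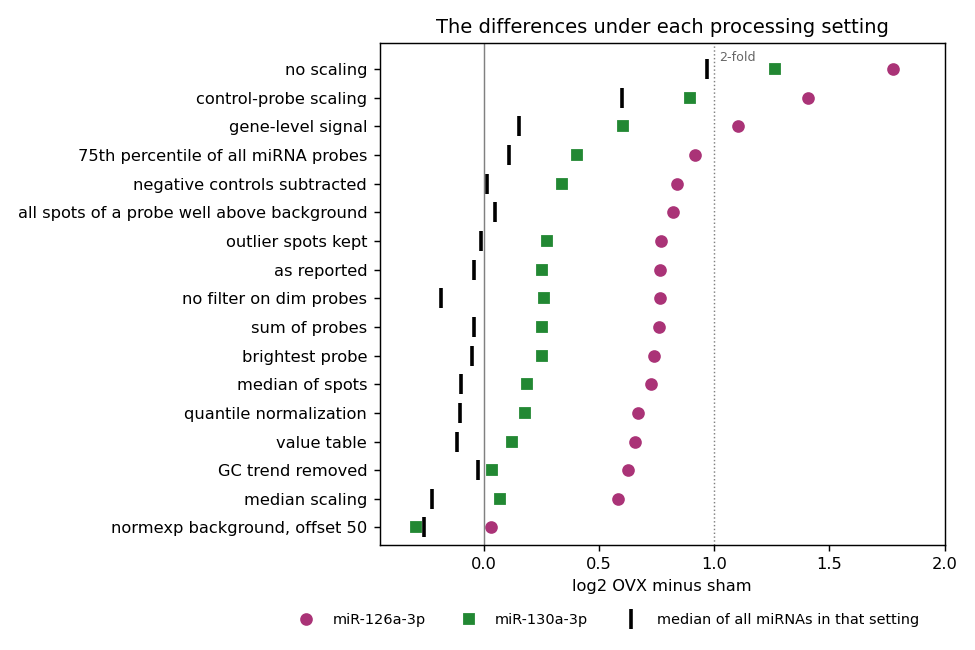
Log2 difference, OVX minus sham, of miR-126a-3p (circles) and miR-130a-3p (squares) under each processing setting, with the median of all miRNAs in the same setting as a black tick. Settings that scale the arrays differently move members and median together; with normexp correction the miR-130a-3p square lies at -0.30, left of its tick.

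Across the 197 miRNAs, which share both arrays, the difference was related to the GC content of the probes, with Spearman's rho at -0.32. The probes of miR-126a-3p have a mean GC content of 43.3% and the measured probe of miR-130a-3p one of 36.8%, below the median of 53.3%. With the fitted trend removed, miR-126a-3p was at 0.63 and miR-130a-3p at 0.04.

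**Figure D5:**
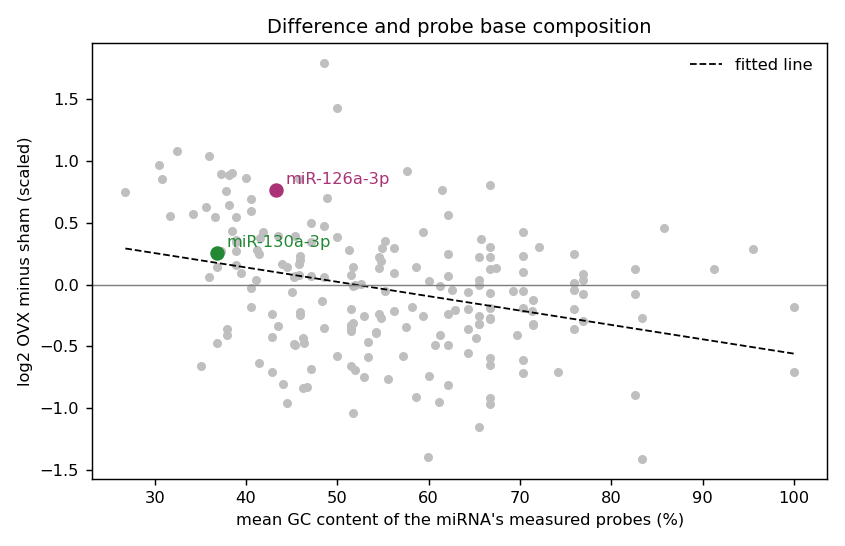
Log2 difference, OVX minus sham, against the mean GC content of the measured probes (%) for the 197 miRNAs, with the fitted line. miR-126a-3p at 43.3% GC lies well above the line and miR-130a-3p at 36.8% GC close to it.

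The miRNAs known from endothelium and vessel growth lay on both sides of 0. Of 16 in that list, 5 were measured, miR-126a-3p among them, 2 above 0 and 3 below, with a median of -0.40 against -0.04 for all. miR-322-5p, which acts in hypoxic endothelium, was at 0.09. miR-92a-3p, a restraint on vessel growth, was at -0.40, miR-10a-5p, which damps endothelial inflammation, at -0.48, and miR-221-3p, which lowers the receptor Kit, at -0.84. The summed probe signal of the list, in units of each array's 75th percentile, was 8.10 in sham and 6.69 in OVX. Such sums are linear, so bright miRNAs weigh most. The log2 levels in sham and OVX were 0.96 and 0.56 for miR-92a-3p, against -2.27 and -1.51 for miR-126a-3p. As 11 of the 16 were well above background on neither array, miR-10b-5p and miR-222-3p among them, an endothelial share of these samples cannot be read from more than a few miRNAs.

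Of 12 miRNAs known from stem and progenitor cells, 3 were measured, and these 3 were above 0, where 47.2% of all measured miRNAs were. Their median was 0.34 against -0.04 for all, and none of the 3 reached 1.5-fold. Beside miR-130a-3p these were miR-125b-5p (0.34, spot SE 0.08, 1 probe), which favours self-renewal of blood stem cells, and miR-29a-3p (0.39, spot SE 0.03). miR-155-5p and miR-99a-5p were present in OVX only, each by 1 of 2 probes. The bound for miR-155-5p was at least 1.06-fold higher in OVX, or 2.15-fold without scaling. For miR-99a-5p the bound did not exceed 1-fold after scaling, so no fold is given. The remaining 7 were well above background on neither array. The list's summed signal was 5.49 in sham and 7.18 in OVX. Its brightest measured miRNA was miR-29a-3p, with log2 levels of 0.97 and 1.37, against -2.62 and -2.37 for miR-130a-3p.

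Markers of other cells in the femur also differed between the pools, and their part in the members' differences was not tested. The summed signals follow mainly the brightest miRNA of a list. For red cells this was miR-451a, with log2 levels of 4.51 in sham and 4.78 in OVX. For granulocytes and monocytes it was miR-223-3p, with 4.84 and 4.21. The 4 red-cell miRNAs had a summed signal of 52.8 in sham and 63.4 in OVX, with 3 above 0; over all 197 miRNAs the share above 0 was 47.2%. In the red-cell list miR-144-5p was at 0.97 (spot SE 0.07), miR-144-3p at 0.85, miR-451a at 0.28 and miR-486a-5p at -0.71. The granulocyte and monocyte list had 71.6 in sham and 52.6 in OVX, with 2 of 3 measured above 0. Of these 3, miR-223-3p was at -0.63, miR-142a-3p at 0.63 and miR-142a-5p at 1.08 (spot SE 0.04). The 4 lymphocyte miRNAs had 2.99 and 3.90, with 2 above 0. Of these 4, miR-150-5p was at 1.43 (spot SE 0.14), miR-342-3p at 0.22, miR-181a-5p at -0.21 and miR-181b-5p at -0.36. The differences of miR-144-5p, miR-144-3p, miR-142a-5p and miR-150-5p exceed that of miR-126a-3p, and those of the other measured miRNAs of these lists do not. Muscle miRNAs had 0.512 and 0.228, with 2 of 6 well above background in sham and 0 in OVX. These sums come mostly from signals near background, divided by a percentile that was 2.02-fold larger in OVX. The bounds were at least 2.04-fold lower in OVX for miR-133a-3p and 2.80-fold for miR-133b-3p. Without scaling they were 1.01-fold and 1.39-fold. Of the 5 miRNAs of smooth muscle and stroma, 4 were well above background on neither array and 1 in OVX only. The cartilage list had 2 of 4 measured, 1 on each side of 0, miR-140-5p at 0.17 and miR-140-3p at -0.49.

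By size of difference alone, the miRNAs nearest to miR-126a-3p were miR-877-3p (0.76), miR-721 (0.76) and miR-32-3p (0.75). Those nearest to miR-130a-3p were miR-1897-5p (0.25), let-7i-5p (0.25) and miR-3102-5p (0.25). The measure is the absolute gap between differences over 2 arrays. Their mean probe GC content ran from 26.8% for miR-32-3p to 76.0% for miR-3102-5p.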

How the data were processed

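The deposited scanner files hold an intensity for each spot; per the file headers they come from Agilent Feature Extraction 10.7.1.1, and per the submitters' processing notes from 11.0.1.1; the processed intensity is background-subtracted and not normalized between arrays. The labels' protocols name a cRNA amplification kit for labelling. A deposited table of log2 values, whose normalization and centring are not given in the sources used here, has column medians of -3.18 and -3.32, its floors; its names fitted the scanner signal only when moved by 1 row (Spearman 0.996 and 0.994 over 1881 miRNAs, 0.02 and 0.04 as printed), so it served as an alternative.

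Flagged spots (2.75% and 2.90%) and control spots were left out, and no miRNA spot was saturated. The mean signal of each probe was put on the log2 scale, the 75th percentile was subtracted as described, and probes measured on both arrays were averaged for each miRNA. Steps were tested on simulated data in which all probes were bright and all spots well above background. The background filter and the dim range of the members were therefore not tested. Python 3.11.15 and limma 3.58.1 (normexp) were used. The file headers name build mm9, yet the matches of the miR-126a-3p probes lie inside the GRCm38.p6 mature interval, as for 39 of 1307 probes compared, and those of miR-130a-3p do not; coordinates printed are RefSeq's.

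Members and lists were chosen with earlier results of these data known. Also named by rule were the other arms, paralogs and seed relatives, the 3 nearest differences per member, and measured list members. The number of arrays limits the precision.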

Additional observations from a re-analysis of the deposited data

How the results depend on the processing

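No paired analysis was possible because each group is 1 array. miR-126a-3p stayed above 0 under the 16 alternatives and miR-130a-3p under 14 of 15; a shift of at least 0.11, the SD between probes, is listed here. For miR-126a-3p and miR-130a-3p in turn, the values were 0.92 and 0.41 with the 75th percentile of all probes, 0.58 and 0.070 with median scaling, 1.78 and 1.27 unscaled, 1.41 and 0.89 scaled to control probes, 0.034 and -0.30 with normexp, 1.104 and 0.60 with the gene-level signal, 0.66 and 0.12 in the value table and 0.63 and 0.039 with the GC trend removed. Subtracting the mean of the negative controls, an alternative chosen after seeing the data, gave 0.84 and 0.34. Requiring all spots well above background left no value for miR-130a-3p. miR-126a-5p had no value except without a filter on dim probes, at -0.42 (spot SE 0.59), from signals at background. Of the 2 measured members, 1 passed 1.5-fold, 2 passed 2-fold unscaled and 1, miR-126a-3p, when scaled to control probes or with the gene-level signal. For the gene-level signal no count over all miRNAs was made. The counts of all miRNAs at least 2-fold higher and lower were 4 and 4 as reported, 22 and 29 at 1.5-fold, 97 and 0 unscaled, 40 and 0 when scaled to control probes, 12 and 3 with the 75th percentile of all probes, 2 and 12 with median scaling, 3 and 8 with quantile normalization, 0 and 0 with normexp, 10 and 43 in the value table and 2 and 5 with the GC trend removed. The scalings by a constant add that constant to every miRNA; the causes of the other shifts were not tested. Depth of signal limits the members in sham: the probe means of the measured members were 20.9 to 32.8, where the lowest counted as well above background was 17.8, and the other probes lay below that.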
